A study of Homo sapiens with 6 samples.

Results

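The E2F transcription factors and their DP partners are the 10 genes E2F1 to E2F8, TFDP1 and TFDP2, found by symbol as 10 of the 23555 gene rows of the expression table, with 1 row for each. IMR-32 is an established human neuroblastoma cell line with amplified MYCN, labelled as wild type in both groups. The cells received PTC-028, a compound used to inhibit the Polycomb protein BMI1, at 25 nM for 24 h, or the solvent DMSO for the same 24 h. RNA was sequenced from 3 libraries per group after poly(A) selection. Expression is given as TPM, a unit that corrects for gene length, so that levels of different genes can be compared, and that adds up to the same fixed total in every library.

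E2F proteins bind DNA as dimers with a DP protein, DP1 from TFDP1 or DP2 from TFDP2, and control the genes a cell needs to enter S phase. E2F1, E2F2 and E2F3 are classed as activators, which the retinoblastoma protein RB holds inactive until cyclin-dependent kinases phosphorylate it. E2F4 and E2F5 act mainly with the RB relatives p107 and p130 as repressors in resting cells. E2F6 represses without pocket proteins, as part of a variant Polycomb complex, and the atypical E2F7 and E2F8 repress without a DP partner.

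All 10 members were expressed and passed the filter on low values, which asked for 1 TPM or more in 3 or more of the 6 libraries. In the PTC-028 libraries, the activator genes E2F1 and E2F2 and the partner gene TFDP1 were lower. The other 7 members, the activator E2F3 and all 5 repressor genes among them, did not pass the test. The test was limma on log2(TPM + 1), fitted on all 13836 genes that met the filter, and a gene passed at a Benjamini-Hochberg adjusted p under 0.05. Thus 3 of 10 members passed as lower and 0 as higher, while 1.88% of all genes tested passed, 1.01% as lower and 0.867% as higher. At an unadjusted p under 0.05 were 5 of the 10, adding E2F8 on the lower side and TFDP2 on the higher side, while 17.3% of all genes tested reached it. The same 5 members did not overlap between the groups, that is, all 3 PTC-028 libraries lay on one side of all 3 DMSO libraries, which was so for 24.0% of the tested genes.

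**Figure D1:**
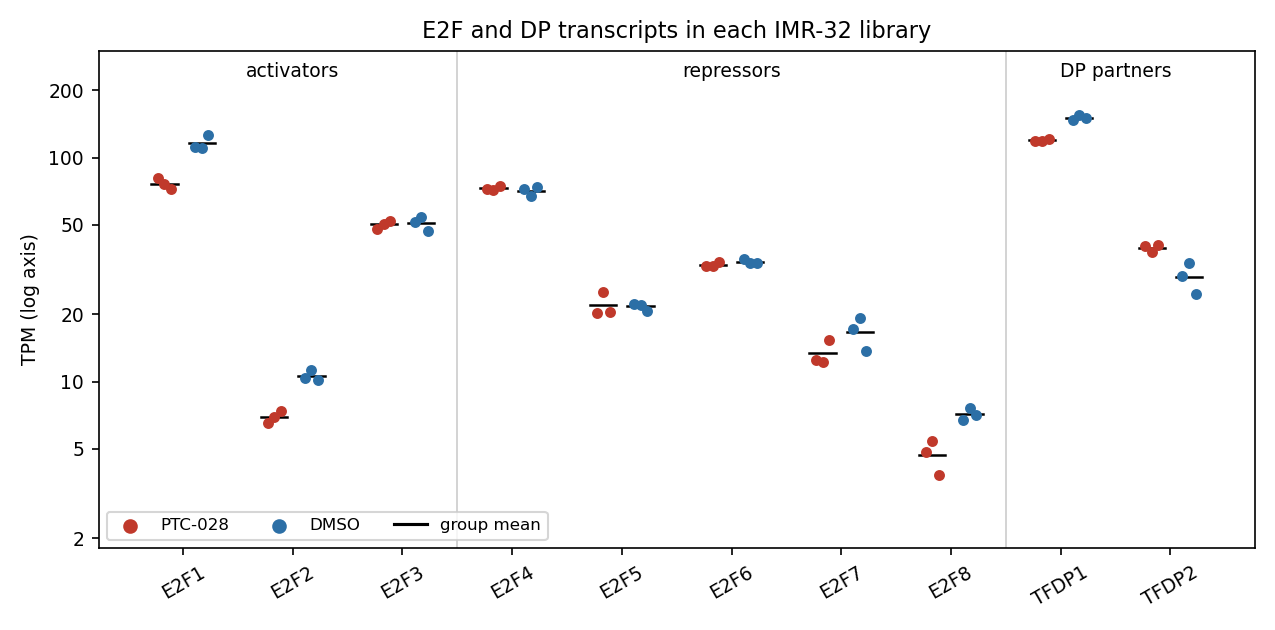
TPM of each member on a log axis, with 1 point per library, PTC-028 in red left of DMSO in blue, and the group mean as a black line. E2F1, E2F2, E2F8 and TFDP1 lie lower in all 3 PTC-028 libraries than in any DMSO library, TFDP2 lies higher, and the other 5 members overlap.

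Each library had 13580 to 14003 genes at 1 TPM or more. Pairs of libraries from the same group correlated at 0.983 to 0.988 on the log2(TPM + 1) scale, and pairs from different groups at 0.981 to 0.985. The 9 markers of adrenergic neuroblastoma cells examined, such as the transcription factor genes HAND2 and GATA3, each averaged at least 1 TPM, although TH and DBH, enzymes of catecholamine synthesis, averaged only 10.8 and 3.86 TPM in PTC-028 and 10.6 and 4.10 TPM in DMSO. Of these, GATA3 passed as higher, with 187 ± 8.04 TPM in PTC-028 and 147 ± 6.16 TPM in DMSO (SD, n = 3 each; limma adjusted p = 0.0211), but it missed the threshold when DMSO replicate 1 or any single PTC-028 library was omitted (adjusted p up to 0.0894). The summed level of the 9 markers was 1468 to 1481 TPM in PTC-028 and 1284 to 1392 TPM in DMSO, without overlap. That of 12 measured markers of immune, endothelial, fibroblast, epithelial, liver and pigment cells was 44.5 to 49.3 TPM in PTC-028 and 42.8 to 47.5 TPM in DMSO, with overlap. Of the 12, 8 averaged under 1 TPM in both groups and 0 passed. Above 1 TPM were the pigment cell gene PMEL, at 20.9 TPM in PTC-028 and 21.1 TPM in DMSO, and the fibroblast gene COL1A1, at 16.1 and 15.8 TPM. The immune cell genes PTPRC, at 4.40 and 3.82 TPM, and CD68, at 1.87 and 1.85 TPM, were above it as well. The part of these markers in the results on E2F genes was not tested. In such bulk RNA, fewer cells in a phase of the cell cycle and less RNA per cell cannot be told apart.

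The members spanned a 25.4-fold range of mean TPM in PTC-028 and a 21.1-fold range in DMSO. TFDP1 was the most abundant in both groups, at 119 ± 1.29 TPM in PTC-028 and 151 ± 4.45 TPM in DMSO (SD, n = 3 each), followed by E2F1, E2F4 and E2F3. E2F8 was the least abundant, below E2F2, E2F7 and E2F5. In PTC-028, E2F1 and E2F4 were the only neighbours in this order whose libraries overlapped. In DMSO, E2F1 stood clear of E2F4, and the only overlapping neighbours were E2F6 and TFDP2, which changed places between the groups.

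Among the activators, E2F1 (GENCODE 29, chr20:33675683-33686404), the member most closely tied to both S phase entry and cell death, had 80.9, 76.1 and 72.3 TPM in the PTC-028 libraries and 111, 111 and 126 TPM in the DMSO libraries. Every PTC-028 library lay below every DMSO library, and the highest DMSO value was that of replicate 3. Its mean was 76.4 ± 4.32 TPM in PTC-028 and 116 ± 8.42 TPM in DMSO (SD, n = 3 each), 66.0% of the DMSO level. The log2 fold change was -0.59 ± 0.07 (SE; 95% interval -0.75 to -0.43; limma adjusted p = 0.00749). E2F1 kept its call with any 1 library left out, with adjusted p up to 0.0483.

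E2F2, a close relative of E2F1, was far less abundant, with 6.55, 6.95 and 7.42 TPM in PTC-028 and 10.3, 11.3 and 10.2 TPM in DMSO. The groups did not overlap, and the mean was 65.7% of that in DMSO, almost the same proportion as for E2F1. On the log2 scale the change was -0.54 ± 0.10 (SE, n = 3 each; 95% interval -0.77 to -0.31; limma adjusted p = 0.0413). The call did not survive the removal of any 1 library, with adjusted p between 0.0652 without DMSO replicate 3 and 0.157 without PTC-028 replicate 1, and it was also lost without a filter on low values (adjusted p = 0.1004).

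E2F3, the third activator, had 48.2, 50.7 and 52.2 TPM in PTC-028 and 51.5, 54.1 and 47.2 TPM in DMSO. The lowest and the highest values were both DMSO libraries, so the groups overlapped fully. The log2 fold change was -0.01 ± 0.07 (SE, n = 3 each; limma adjusted p = 0.940), with a 95% interval of -0.18 to 0.15 that lay apart from the intervals of E2F1 and E2F2. Its sign turned without PTC-028 replicate 1 (0.016) or DMSO replicate 2 (0.029). The table gives 1 value per gene, so the 2 start sites of E2F3 in RefSeq, which belong to different isoforms, were not separated.

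**Figure D2:**
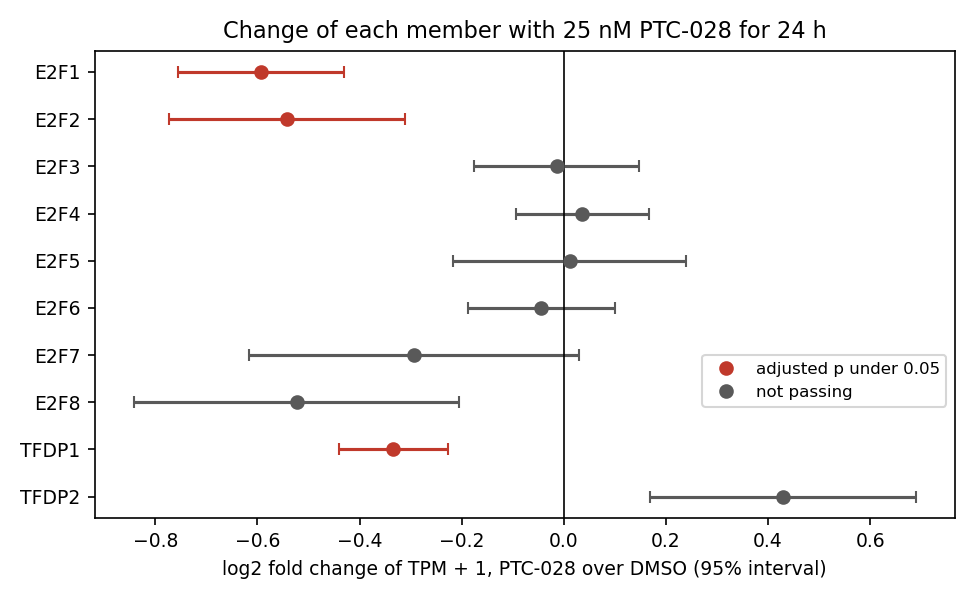
Log2 fold change of TPM + 1, PTC-028 over DMSO, for each member with its 95% interval, where red marks an adjusted p under 0.05. E2F1, E2F2 and TFDP1 pass below 0, the intervals of E2F3, E2F4, E2F5, E2F6 and E2F7 include 0, and those of E2F8 and TFDP2 exclude it without passing the adjusted test.

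E2F genes are themselves known E2F targets, so the promoters of the 3 activators are shown for the E2F motif they carry. Windows of 250 bases before to 50 after the start come from RefSeq (GRCh38.p14), and 8 of the 10 members had one in the table used, all but E2F5 and E2F8. Capitals mark the motif TTTCCCG, its variant form TTTCGCG, a further variant form TTTGCCG or the last variant form TTTGGCG, on either strand. These are 7-letter forms, and the 8-letter forms add a C at the end. Matches may overlap, as they do in E2F1. E2F1 lies at chr20:33686336-33686635 (minus strand), E2F2 at chr1:23531184-23531483 (minus strand) and the first start of E2F3 at chr6:20401629-20401928 (plus strand).
E2F1: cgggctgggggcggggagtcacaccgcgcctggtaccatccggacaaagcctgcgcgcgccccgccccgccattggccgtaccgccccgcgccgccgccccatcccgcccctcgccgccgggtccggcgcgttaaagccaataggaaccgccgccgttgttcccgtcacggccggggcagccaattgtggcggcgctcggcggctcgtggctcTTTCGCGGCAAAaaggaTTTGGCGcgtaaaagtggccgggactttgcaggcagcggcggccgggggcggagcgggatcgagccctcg
E2F2: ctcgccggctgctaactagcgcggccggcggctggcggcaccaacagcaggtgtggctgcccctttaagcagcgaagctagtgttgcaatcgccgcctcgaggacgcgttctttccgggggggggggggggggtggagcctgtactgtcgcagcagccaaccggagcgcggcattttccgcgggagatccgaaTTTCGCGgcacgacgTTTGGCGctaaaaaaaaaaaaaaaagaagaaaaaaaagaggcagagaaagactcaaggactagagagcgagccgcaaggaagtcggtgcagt
E2F3: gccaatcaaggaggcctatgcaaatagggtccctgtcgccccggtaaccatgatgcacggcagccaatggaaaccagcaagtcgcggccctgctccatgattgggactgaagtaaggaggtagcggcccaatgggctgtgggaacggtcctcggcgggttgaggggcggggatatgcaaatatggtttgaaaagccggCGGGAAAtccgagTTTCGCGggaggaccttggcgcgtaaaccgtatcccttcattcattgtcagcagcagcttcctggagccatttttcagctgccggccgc

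Of these windows, that of E2F1 held 3 matches of 7 letters, 2 of which extended to 8, all between 37 and 20 bases before the start. The windows of E2F2 and of the first start of E2F3 each held 2 matches, 1 of which extended to 8 letters, within 60 bases before the start. These 3 windows were thus alike in holding the motif close to the start. The window of the second start of E2F3 held 0 matches, and the TPM of E2F3 does not separate the 2 starts. E2F1 and E2F2 fell with PTC-028 and E2F3 did not pass the test, and the part of the motif in this was not tested. At least 1 match of 7 letters was found in 8.67% of the 35116 windows of the table, and of 8 letters in 3.31%. Among tested genes with a window, counted over any start of a gene, the shares were higher, at 16.5% and 6.64%.

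None of the 5 repressor E2Fs passed the test. E2F4, the most abundant of them and the main partner of p130 in resting cells, had 72.3, 72.0 and 74.5 TPM in PTC-028 and 72.1, 67.6 and 73.8 TPM in DMSO. The groups overlapped, at 0.04 ± 0.06 on the log2 scale (SE, n = 3 each; 95% interval -0.09 to 0.17; limma adjusted p = 0.780). Without DMSO replicate 2 the value was -0.00010. Of the other repressors with a window, that of E2F7 held 0 matches to the motif and that of E2F6 held 2, both of 7 letters only. The part of the motif in the levels of these genes was not tested. The promoter of E2F4 (chr16:67191905-67192204, plus strand, same source), shown beside the windows of the activators, held no match to the motif.
E2F4: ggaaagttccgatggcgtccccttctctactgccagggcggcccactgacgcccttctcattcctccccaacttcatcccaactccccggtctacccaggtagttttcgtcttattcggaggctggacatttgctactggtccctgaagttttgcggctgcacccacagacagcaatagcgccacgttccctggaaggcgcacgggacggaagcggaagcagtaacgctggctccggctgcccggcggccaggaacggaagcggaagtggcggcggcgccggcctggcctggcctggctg

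E2F5, the other partner of p130, had 20.3, 25.1 and 20.4 TPM in PTC-028 and 22.2, 21.998 and 20.7 TPM in DMSO. PTC-028 replicate 2 was the highest library and the other PTC-028 libraries were the lowest. With a log2 fold change estimated at 0.01 ± 0.10 SE (n = 3 each; limma adjusted p = 0.964) it had no stable sign, being at -0.016 under median ratio scaling, -0.028 after quantile normalisation, -0.085 without PTC-028 replicate 2 and -0.019 without DMSO replicate 3. E2F5 overlaps the protein-coding gene C8orf59 on the opposite strand, which averaged 57.9 TPM in PTC-028 and 65.7 TPM in DMSO, and whether the authors' counting used strand is not given in the sources used here.

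E2F6 had 32.7, 32.7 and 34.3 TPM in PTC-028 and 35.2, 33.7 and 33.9 TPM in DMSO, overlapping values within a narrow range. On the log2 scale E2F6 was at -0.04 ± 0.06 (SE, n = 3 each; 95% interval -0.19 to 0.10; limma adjusted p = 0.760). Among 10 tested genes of the Polycomb complex that E2F6 belongs to, 0 passed in limma and 3 had an unadjusted p under 0.05, which 17.3% of all genes tested also had. Their median log2 fold change was -0.08, against 0.03 over all genes tested. PCGF6, the Polycomb ring finger protein specific to that complex, had the smallest p, with 16.8 ± 0.69 TPM in PTC-028 and 21.2 ± 0.65 TPM in DMSO (SD, n = 3 each; limma adjusted p = 0.0899). WDR5, a histone-binding subunit, was at -0.20 (limma adjusted p = 0.138).

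Of 9 germline genes that E2F6 and its complex are known, from mouse cells, to silence, 7 were in the table and 2 met the filter. These were STAG3, a meiotic cohesin subunit, with 7.80 ± 0.43 TPM in PTC-028 and 6.30 ± 0.84 TPM in DMSO, and TDRKH, a factor of the piRNA pathway, with 16.7 ± 1.79 TPM in PTC-028 and 14.9 ± 1.05 TPM in DMSO (SD, n = 3 each). Neither passed (limma adjusted p = 0.298 and 0.483), and neither had an unadjusted p under 0.05. SMC1B, SLC25A31, MAEL, TAF7L and STK31 averaged below 1 TPM in both groups.

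The atypical E2F7 and E2F8 were the least abundant of the repressors, and both had log2 fold changes below 0. E2F7, which is also a known direct target of p53, had 12.5, 12.2 and 15.3 TPM in PTC-028 and 17.2, 19.2 and 13.7 TPM in DMSO. PTC-028 replicate 3 lay above DMSO replicate 3, so the groups overlapped, and E2F7 did not pass at -0.29 ± 0.14 on the log2 scale (SE, n = 3 each; 95% interval -0.62 to 0.03; limma adjusted p = 0.327). CDKN1A, the best known p53 target, did rise, with the values given among the kinase inhibitors.

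E2F8, which acts together with E2F7, had 4.83, 5.44 and 3.83 TPM in PTC-028 and 6.70, 7.64 and 7.09 TPM in DMSO. All PTC-028 libraries were lower than all DMSO libraries, and the mean was 65.8% of the DMSO level, as for E2F1 and E2F2. The log2 fold change of -0.52 ± 0.14 missed the threshold (SE, n = 3 each; 95% interval -0.84 to -0.20; limma adjusted p = 0.119), and the adjusted p was between 0.0619 and 0.292 under the alternatives. TPM of E2F7 and E2F8 summed to 17.4, 17.7 and 19.2 in PTC-028 and to 23.9, 26.8 and 20.8 in DMSO, without overlap.

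TFDP1, which encodes DP1, had 119, 118 and 121 TPM in PTC-028 and 147, 155 and 150.1 TPM in DMSO. The groups did not overlap, and the spread within each was small beside the distance between them. The log2 fold change was -0.33 ± 0.05 (SE, n = 3 each; 95% interval -0.44 to -0.23; limma adjusted p = 0.0141), with 79.2% of the DMSO level left. TFDP1 no longer passed when DMSO replicate 1 or any single PTC-028 library was omitted, with adjusted p up to 0.0818, nor with eBayes run without a trend (0.0815). The window of the first start of TFDP2, which did not fall, also held 1 match, of 7 letters only. The promoter of TFDP1 (chr13:113584503-113584802, plus strand, same source) is shown as that of the third member that fell, and held 1 match, of 8 letters on the opposite strand, 119 bases before the start.
TFDP1: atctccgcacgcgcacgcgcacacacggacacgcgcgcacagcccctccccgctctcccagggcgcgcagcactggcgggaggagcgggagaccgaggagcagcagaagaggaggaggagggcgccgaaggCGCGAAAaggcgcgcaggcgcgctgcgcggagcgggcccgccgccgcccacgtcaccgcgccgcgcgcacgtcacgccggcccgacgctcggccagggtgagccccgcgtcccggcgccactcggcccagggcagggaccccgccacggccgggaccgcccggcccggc

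TFDP2, which encodes DP2, stood on the other side. It had 40.3, 37.7 and 40.9 TPM in PTC-028 and 29.7, 33.9 and 24.6 TPM in DMSO, higher in all 3 PTC-028 libraries than in any DMSO library. The DMSO libraries were widely spread, and the log2 fold change of 0.43 ± 0.11 missed the threshold (SE, n = 3 each; 95% interval 0.17 to 0.69; limma adjusted p = 0.118). Under the alternatives the adjusted p was between 0.0549 and 0.286. TFDP2 made up 25.3%, 24.2% and 25.3% of the summed TPM of both DP genes in PTC-028 and 16.8%, 17.9% and 14.1% in DMSO. TFDP1 was 3.01 ± 0.11 times as abundant as TFDP2 in PTC-028 and 5.21 ± 0.79 times in DMSO (SD, n = 3 each).

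**Figure D3:**
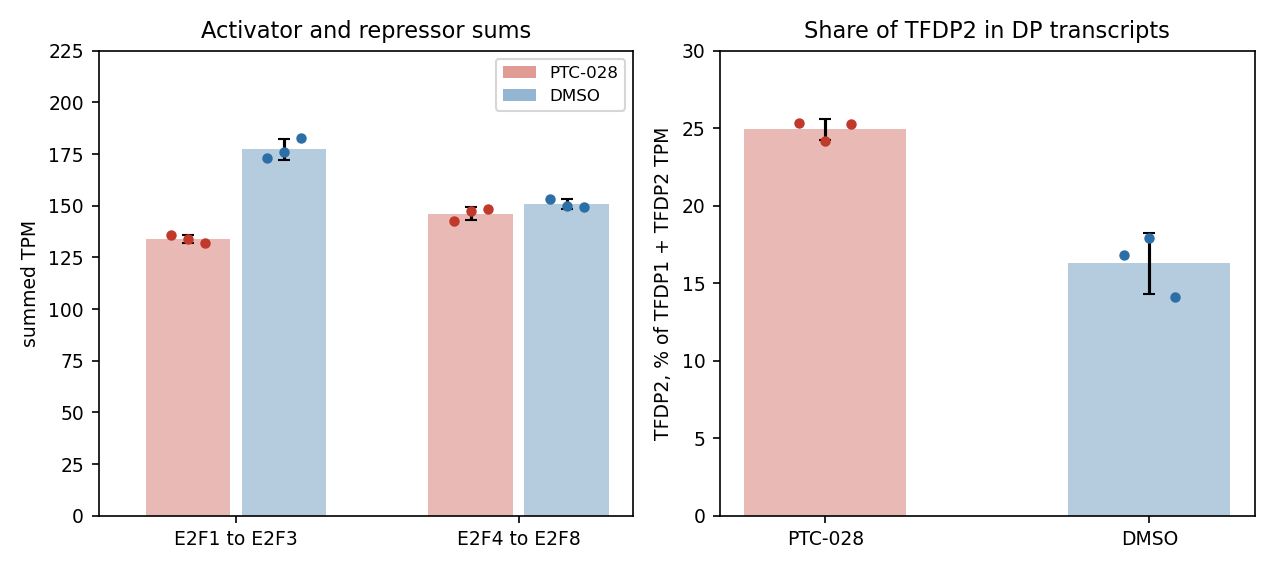
Left, summed TPM of the activators E2F1 to E2F3 and of the repressors E2F4 to E2F8, and right, TFDP2 as a percentage of TFDP1 and TFDP2 TPM, with bars for means, error bars for SD over 3 libraries and points for libraries. The activator sum is lower in all PTC-028 libraries (131.9 to 136 TPM) than in DMSO (173 to 183 TPM), the repressor sums lie close together, and the TFDP2 share is higher in all PTC-028 libraries.

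Set against each other, the activators were lower in sum with PTC-028 by a wider margin than the repressors, a difference shown here as values. TPM of E2F1, E2F2 and E2F3 summed to 136, 134 and 131.9 in PTC-028 and to 173, 176 and 183 in DMSO. Most of this difference was E2F1, which averaged 76.4 TPM in PTC-028 and 116 TPM in DMSO. E2F2 averaged 6.97 TPM in PTC-028 and 10.6 TPM in DMSO, and E2F3 50.4 and 50.9 TPM. TPM of E2F4 to E2F8 summed to 143, 147 and 148 in PTC-028 and to 153, 150.02 and 149 in DMSO. Neither sum overlapped between the groups, although the repressor sums came close. The activators made up 47.8 ± 0.86% of all E2F TPM in PTC-028 and 54.0 ± 1.05% in DMSO (SD, n = 3 each), so that repressor transcripts outnumbered activator transcripts in PTC-028 and not in DMSO. E2F1 alone held 27.3 ± 1.65% in PTC-028 and 35.3 ± 2.19% in DMSO.

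With each gene centred on its DMSO mean on the log2(TPM + 1) scale, the median of the activators minus that of the repressors was -0.42, -0.48 and -0.38 in the PTC-028 libraries and -0.07, 0.06 and -0.04 in the DMSO libraries, without overlap. The difference of the group means was -0.41, and -0.49 against E2F4, E2F5 and E2F6 alone. No p is given for it, since the members were chosen with results of these data known. As a single value, the log2 ratio of E2F1 to E2F4 was 0.16, 0.08 and -0.04 in PTC-028 and 0.62, 0.71 and 0.76 in DMSO. The difference of the group means was -0.63, without overlap. No call is made on it, since an exact 2-sided permutation test of 3 against 3 libraries cannot give a p below 0.1. Both classes were mixed, since E2F3 did not pass while the other activators fell, and E2F8 had a log2 fold change close to theirs among the repressors. The activator median therefore does not describe E2F3.

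For each member that passed, the genes most like it over the 6 libraries were sought by the root mean square difference of log2(TPM + 1), each gene centred on its DMSO mean, among 10750 tested genes with a mean TPM of at least 5. Nearest to E2F1 were PKMYT1, a kinase that inhibits CDK1, at 0.07, CENPM, a centromere protein, at 0.07, and NRM, a nuclear membrane protein, at 0.08. PKMYT1, CENPM and NRM all shared with E2F1 its highest level in DMSO replicate 3, a likeness on which they were picked. PKMYT1 had 70.1, 71.1 and 72.2 TPM in PTC-028 and 99.8, 105 and 122 TPM in DMSO. Nearest to E2F2 were USP1, a deubiquitinase of the Fanconi pathway, the centromere gene CENPU and the clamp loader gene RFC5, at 0.03, 0.04 and 0.05. Nearest to TFDP1 were the tubulin gene TUBB, the serotonin receptor gene HTR3A and GON7, a subunit of a tRNA-modifying complex, each at 0.03. TUBB had 3 rows in the table, of which the most abundant was the one nearest to TFDP1, so its level is uncertain.

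The genes around the E2F family were taken by list, and the counts of members passing are read beside the 1.01% of all genes tested that passed as lower and the 0.867% that passed as higher. Of 11 genes for pocket proteins, MuvB subunits and their partners, which with E2F4 or E2F5 form the DREAM repressor or act after it, 1 fell and 10 missed the threshold. Their median log2 fold change was -0.14. RB1 itself averaged 25.8 TPM in PTC-028 and 28.2 TPM in DMSO, at -0.12 on the log2 scale (limma adjusted p = 0.516). The gene that fell was MYBL2, a MuvB partner and E2F target, to 123 ± 4.82 TPM in PTC-028, against 168 ± 5.69 TPM in DMSO (SD, n = 3 each; limma adjusted p = 0.00712). It missed the threshold when DMSO replicate 1 was omitted (0.0517). RBL1, which encodes p107, was at -0.32 (limma adjusted p = 0.262).

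Of 9 tested kinase, cyclin and phosphatase genes that act on RB, 4 fell, 1 rose and 4 did not pass. CDK2, the kinase of cyclins E and A, fell to 99.5 ± 6.23 TPM in PTC-028, against 151 ± 10.3 TPM in DMSO (SD, n = 3 each; limma adjusted p = 0.00711), and kept its call with any 1 library left out. CCNE2, which encodes cyclin E2, fell by 0.89 and CDK4, the partner of D cyclins, by 0.22 on the log2 scale (limma adjusted p = 0.0258 and 0.0282). CDC25A, a phosphatase that activates CDK2, fell by 0.45 (limma adjusted p = 0.0338), but passed in only 1 of the 6 fits with 1 library left out. CCND1, which encodes cyclin D1, rose to 452 ± 10.8 TPM in PTC-028, against 360 ± 25.3 TPM in DMSO (limma adjusted p = 0.0297). The calls of CCNE2, CDK4 and CCND1 were lost without DMSO replicate 1 or without PTC-028 replicate 1 or 2, CCNE2 and CDK4 also lost theirs without DMSO replicate 2, and CDK4 and CCND1 theirs without PTC-028 replicate 3 (adjusted p up to 0.105, 0.128 and 0.132).

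Of 5 tested inhibitors of these kinases, 1 rose and 4 did not pass. CDKN1A, which encodes p21, had 286, 315 and 280 TPM in PTC-028 and 79.0, 77.2 and 79.8 TPM in DMSO, which is 1.89 ± 0.06 SE in log2 units (n = 3 each; limma adjusted p = 1.398e-05), and passed with any 1 library left out. CDKN2C, which encodes p18, was at -0.20 (limma adjusted p = 0.106). Of 3 genes whose products mark E2F proteins for degradation, CCNF, FZR1 and SKP2, 0 passed in limma and 0 had an unadjusted p under 0.05. SKP2 was at -0.17 and CCNF at -0.05 (limma adjusted p = 0.385 and 0.726).

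**Figure D4:**
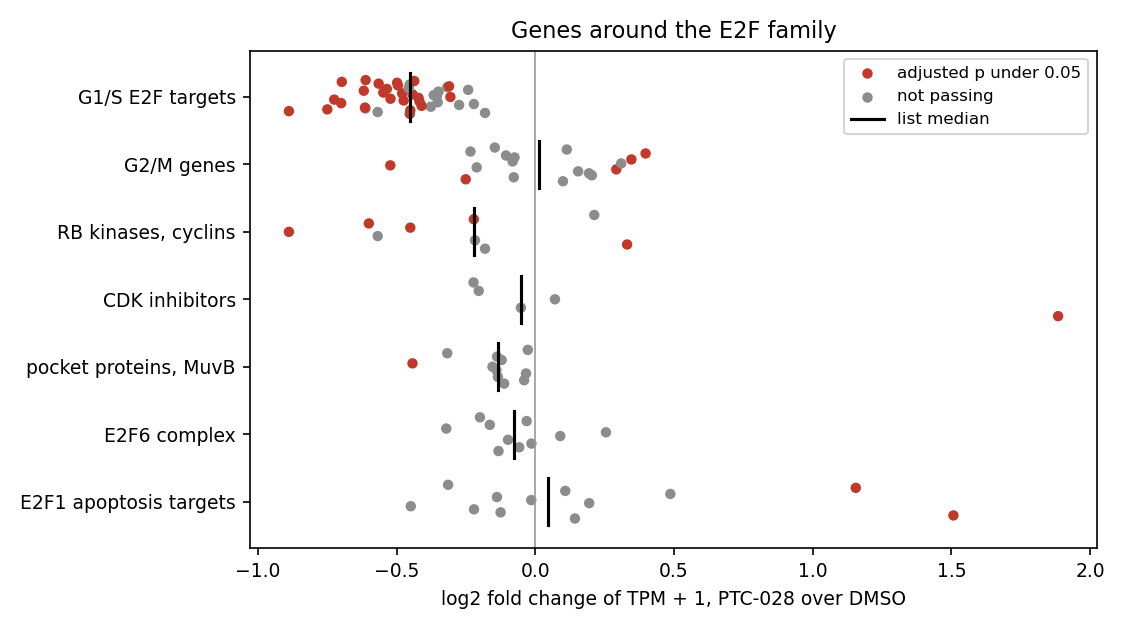
Log2 fold change of TPM + 1, PTC-028 over DMSO, for every tested gene of 7 lists around the E2F family, where red points have an adjusted p under 0.05 and black lines are list medians. All 39 G1/S E2F targets lie below 0 (5882 of the 13836 genes tested do), the G2/M genes lie on both sides, and CDKN1A lies farthest to the right.

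Of 39 well-known E2F targets of the G1/S transition, which share CCNE1, CCNE2, CCNA2, CDC25A, MYBL2 and RBL1 with the lists above, 25 fell, 14 did not pass and all 39 had a log2 fold change below 0. Their median was -0.45, against 0.03 over all genes tested, with a range of -0.89 to -0.18 that held the values of E2F1, E2F2, TFDP1 and, among the members that did not pass, E2F7 and E2F8. FEN1, a nuclease of Okazaki fragments, fell to 93.9 ± 1.69 TPM in PTC-028, against 153 ± 5.11 TPM in DMSO (SD, n = 3 each; limma adjusted p = 0.000961). UNG, which removes uracil from DNA, TK1, which makes thymidine monophosphate, and CDC45, a part of the replicative helicase, fell by 0.61, 0.70 and 0.75 on the log2 scale (limma adjusted p between 0.00222 and 0.00286). These 4 genes passed with any 1 library left out. The count of 25 fell to 10 without DMSO replicate 1, to 15 without PTC-028 replicate 1, to 13 without PTC-028 replicate 2 and to 15 without PTC-028 replicate 3.

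Of 18 G2/M genes that MuvB complexes are known to bind, 3 rose, 2 fell and 13 missed the threshold, and the median was 0.01. PLK1, a kinase of mitotic entry, rose to 119 ± 3.62 TPM in PTC-028, against 90.4 ± 2.58 TPM in DMSO, while CDK1, the main mitotic kinase, fell to 84.8 ± 6.94 TPM in PTC-028, against 122 ± 3.78 TPM in DMSO (SD, n = 3 each; limma adjusted p = 0.0106 and 0.0112). KIF20A, a kinesin of cytokinesis, rose by 0.35 and CDC20, which targets securin for degradation, by 0.29 on the log2 scale (limma adjusted p = 0.0252 and 0.0471). The other gene that fell was AURKB, named after its value was seen, at -0.25 (limma adjusted p = 0.0492). CDC20 and AURKB lost their calls with any 1 library left out (limma adjusted p up to 0.177 and 0.175). CDK1 passed in 4, PLK1 in 3 and KIF20A in 2 of these 6 fits. With 1 library left out, 0 to 2 genes of the list were called higher and 0 to 1 lower. Both counts were 0 when DMSO replicate 1, or PTC-028 replicate 3, was omitted, and the higher count was also 0 when PTC-028 replicate 2 was omitted.

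Of 12 tested genes of cell death that E2F1 is known to activate, 2 rose and 10 missed the threshold, and the median was 0.05. The 2 were BBC3, which encodes PUMA, with 29.2 ± 3.57 TPM in PTC-028 and 9.59 ± 0.224 TPM in DMSO, and TP53INP1, a p53 cofactor, with 26.3 ± 2.18 TPM in PTC-028 and 11.3 ± 0.545 TPM in DMSO (SD, n = 3 each; limma adjusted p = 0.000961 for BBC3 and 0.00189 for TP53INP1). These genes are also known targets of p53, and they passed with any 1 library left out. TP73 and APAF1, better known as E2F1 targets, were at -0.32 and 0.14 on the log2 scale (limma adjusted p = 0.295 and 0.545), and were named after their values were seen.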

How the data were processed

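The authors deposited 1 table of TPM per gene with a column for each library, which was taken without rescaling. The genome build named is GRCh38, per the submitters' processing notes. The sources used here do not give the aligner, the quantifier or the annotation. A TPM table keeps no read totals, so depth is unknown and no interval from read counts is given. The labels do not say that the replicates were separate cultures, and the p-values therefore rest on the spread among these libraries alone, which may be technical.

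The members and lists were chosen with earlier results of these data known. Differences were tested with limma 3.58.1 (R 4.3.3) on log2(TPM + 1), with a 2-group design, eBayes with a trend, and Benjamini-Hochberg adjustment over the 13836 genes at 1 TPM or more in 3 or more of the 6 libraries. Fold changes are PTC-028 over DMSO on the log2(TPM + 1) scale, which understates changes of low genes. Where rows shared a symbol, the row with the highest mean TPM stood for it in the lists. Identifiers of all 10 members matched GENCODE 29. The procedure was tested on simulated data. Named genes are the members, up to 4 passing genes with the smallest p of each list (the 2 with the smallest p where fewer than 2 passed) and the 3 nearest genes of each passing member. RB1, the markers and the germline genes below the filter are given as context, and any other gene is said to be chosen after its values were seen. Alternatives were other pseudocounts, filters and scalings, eBayes without a trend, the replicate number as a block, and each library left out. One marker gene on the list is not reported here and was left out of the marker sum.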

Additional observations from a re-analysis of the deposited data

How the results depend on the processing

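Each library was left out in turn, and 9 other settings were tried, of which summing the rows of 1 symbol was chosen after seeing the data. Of all genes, 260 passed (120 higher, 140 lower), against 138 (59 and 79) without a filter on low values, 131 (81 and 50) with eBayes run without a trend, and between 67 and 204 (32 to 123 higher, 35 to 111 lower) with 1 library left out. Between 1 and 2 members, E2F1 always among them, were lower with 1 library left out. The counts ranged from 0 to 1 for MYBL2 in the pocket protein list, from 10 to 24 for lower G1/S targets, from 0 to 1 for higher and 1 to 4 for lower RB kinase and cyclin genes, and from 0 to 2 for higher and 0 to 1 for lower G2/M genes, where median ratio scaling left 1 lower. The activator minus repressor difference of -0.41 was -0.30 with a pseudocount of 5, -0.49 against E2F4 to E2F6 alone and -0.47 to -0.38 with 1 library left out, and the difference in the log2 ratio of E2F1 to E2F4 was then -0.68 to -0.57. Of the members, only E2F3, E2F4 and E2F5 turned sign, and none of them passed. With 1 library left out they ranged from -0.067 to 0.029, from -0.00010 to 0.063 and from -0.085 to 0.061, and E2F5 was at -0.016 under median ratio scaling and -0.028 after quantile normalisation. The cause of these shifts was not tested.

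Same-numbered libraries did not deviate together (r = 0.03, -0.03 and -0.10 across genes). The labels do not say whether libraries of the same number were prepared together, and this was not tested. With the replicate number as a block, 62 genes passed (36 higher, 26 lower), with 0 members (adjusted p = 0.0561 for E2F1, 0.145 for E2F2 and 0.0904 for TFDP1), 10 lower G1/S targets, 0 higher and 1 lower RB kinase or cyclin gene, and 0 higher and 1 lower G2/M gene. Of the 3 PTC-028 libraries, 1 correlated best with its own number.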

Other observations

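The E2F motif was also counted in the promoter windows of other genes, over any start of a gene, as a description with no test. At least 1 match of 7 letters was found in 6 of the 8 members with a window, all but E2F4 and E2F7. Of 33 G1/S E2F targets with a window, 20 held a match (60.6%), and of 14 G2/M genes 2 did (14.3%). Among genes with a window that passed, the match was found in 47 of 110 that fell (42.7%) and in 16 of 78 that rose (20.5%), against 16.5% of 9838 tested genes. The window table is not complete, and these shares cover only the genes it holds. A match describes the letters in the window and does not show that an E2F protein binds there.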
